A study of Mus musculus with 15 samples.

Results

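The p53, DNA damage and apoptosis genes of foetal male germ cells are 34 named genes out of the 54838 genes in the count tables. They were chosen by name as a pathway, with earlier results of these data known. They were followed in sorted gonocytes of mouse foetuses at E16.5, to ask whether transposable element reads before birth are accompanied by transcripts of damage signalling.

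TEX15 is a germ cell protein that the study places with MIWI2, the nuclear PIWI protein that directs methylation of transposons in these cells. The gonocytes were sorted by tdTomato fluorescence from E16.5 testes of 2 genotypes on a mixed genetic background. The control gonocytes were *Tex15*+/-; *Miwi2*tdTom/+ and the *Tex15*-/- gonocytes (labelled Tex15KO) were *Tex15*-/-; *Miwi2*tdTom/+, so both groups carried a *Miwi2* tdTomato allele and the controls carried a *Tex15* null allele. That allele is an insertion with stop codons in exon 5 and came from a single founder, and no agent was given. Each group had 3 RNA-seq libraries, numbered in the labels. Whether these came from separate animals or pools is not given in the sources used here, so the p-values measure the spread between these libraries, which may in part be technical.

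The transcription factor p53 is kept low by MDM2, which marks it for degradation, and by MDM4, which binds and restrains it. When DNA breaks, the kinases ATM and ATR phosphorylate the histone variant H2AX and, with CHEK2 and CHEK1, p53, which then raises genes that halt the cell cycle, repair DNA or release cytochrome c through BAX and BAK1. In germ cells the p53 family is known for removing cells with damaged genomes, and foetal male germ cells rest in cell cycle arrest at this age. Much of this pathway acts through phosphorylation and protein stability, which RNA counts do not measure.

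In the 6 libraries, between 4893265 and 5697020 reads were counted on genes, and 16311 genes passed the filter on low counts. Levels are given as CPM, the reads of a gene scaled to a common library size with TMM factors. *Tex15* itself was at 1509, 1667 and 1664 CPM in the controls and at 469, 230 and 249 CPM in the *Tex15*-/- libraries, a log2 fold change of -2.35 (edgeR adjusted p = 0.0112). The 9 germ cell markers summed to between 3080 and 3225 CPM in the controls and between 3000 and 3204 CPM in the *Tex15*-/- libraries. Of the 9, 2 (*Dazl* and *Nanos3*) were lower in every *Tex15*-/- library than in every control, as were 6.68% of all genes tested. The 28 markers of Sertoli, Leydig, interstitial, endothelial and blood cells summed to between 158 and 217 CPM in the controls, and to 160, 2339 and 680 CPM in *Tex15*-/- replicates 1, 2 and 3. Of the 28, 3 were higher in every *Tex15*-/- library than in every control, as were 6.51% of all genes tested. *Insl3* and *Hba-a1* were at 0 in the controls. *Tex15*-/- replicate 2 therefore stood apart, replicate 3 less so, and replicate 1 lay in the range of the controls. In RNA from many cells, fewer cells of a type cannot be told apart from less RNA per cell.

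The p53 response element is the sequence that p53 binds. Among the 28 members in the RefSeq promoter table (GRCm38.p6), 5 had a sequence within 2 mismatches of the p53 response element consensus in the 3000 bp on either side of an annotated start, against 6.86% of 27025 genes. The consensus is a 20-base palindrome of 2 repeats of 10 bases, searched without a spacer on both strands. A sequence was counted, for members and for all genes, only if the C and G of each repeat were intact. Mismatches were thus allowed only at the other bases. *Trp63*, *Zmat3*, *Perp*, *Trp53inp1*, *Pmaip1* and *H2afx* had no entry among the RefSeq promoters and were not searched. The 5 best matches are printed because, of the 28 searched, these members come closest to the element near a start. The capitals are the 4 central bases of each 10-base repeat.

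*Cdkn1a* (1 mismatch): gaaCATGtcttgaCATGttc
*Ccng1* (1 mismatch): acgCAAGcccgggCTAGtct
*Bax* (2 mismatches): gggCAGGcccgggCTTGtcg
*Fas* (2 mismatches): gggCATGtacaaaCATGtca
*Trp73* (2 mismatches): gggCAAGctgaggCCTGccc

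Where a gene had several annotated starts, the best match over all of them was kept, so the start named need not be the main one. The *Cdkn1a* match lies on the plus strand at chr17:29090928-29090947, 42 bp before an annotated start and outside the annotated gene. That of *Ccng1* is on the minus strand at chr11:40754936-40754955, 340 bp after the start, within the gene but in no annotated exon. For *Bax* it lies on the minus strand at chr7:45466574-45466593, 314 bp after the start, and overlaps an annotated exon. The *Fas* match, on the plus strand at chr19:34292364-34292383, is 1714 bp after the start in no annotated exon. For *Trp73* it is on the minus strand at chr4:154097220-154097239, 56 bp before the start of one transcript, within the gene and in no annotated exon. A match within 1 mismatch occurred for 2 of the 28 members and for 1.24% of all genes. A match is a description of the letters and does not show binding.

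In control gonocytes *Mdm2* was abundant, whereas *Trp53* and *Cdkn1a* were scarce. Levels of different genes were compared as CPM per kb of merged exons (RPKM), and percentiles are among 16307 genes. *Mdm2* had the highest level of the 34, at 49.0 ± 2.71 RPKM (SD, n = 3), which lay at the 96.3 percentile. *Trp53* was at 1.74 ± 0.0713 RPKM, the 30.7 percentile, so that its level was 28.1 times below that of *Mdm2*. *Cdkn1a*, the cell cycle inhibitor most often used as a readout of p53, was at 0.292 ± 0.242 RPKM, the 1.12 percentile.

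**Figure D1:**
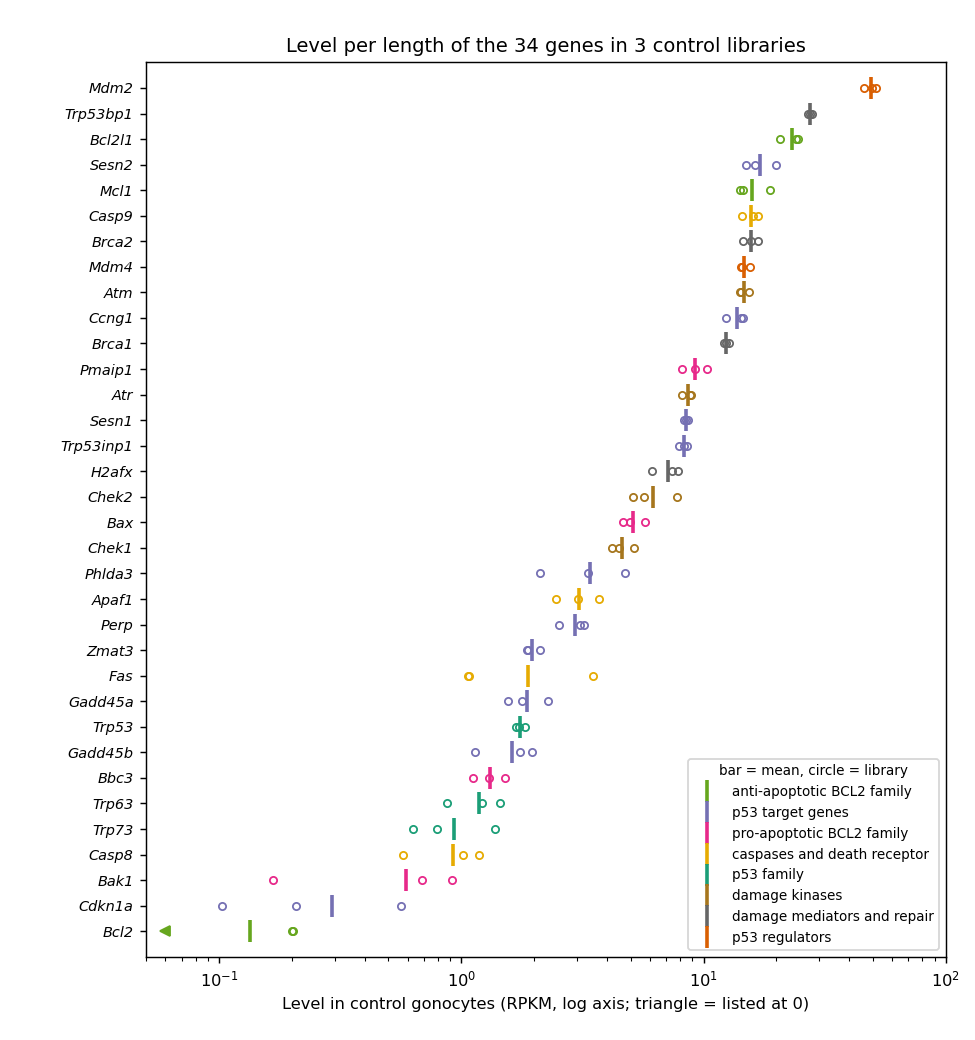
Level per length of each of the 34 genes in control gonocytes, in RPKM on a log axis, with circles for the 3 libraries, a vertical bar for their mean, a triangle for a library listed at 0 and colours for the roles. Levels run from 49.0 RPKM for *Mdm2* to 0.134 RPKM for *Bcl2*, with *Cdkn1a* next to last at 0.292 RPKM.

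Of the 34, 20 lay above the median level of all genes (3.38 RPKM), 13 above the upper quartile and 7 below the lower quartile. Below *Mdm2* came *Trp53bp1*, which binds at broken ends, at 27.5 RPKM and *Bcl2l1*, which encodes the survival protein BCL-XL, at 23.1 RPKM. Next came *Sesn2* (17 RPKM), *Mcl1* (15.9 RPKM), *Casp9* (15.7 RPKM) and *Brca2* (15.7 RPKM), whose libraries overlapped from each gene to the next. At the lower end stood *Bbc3* (1.31 RPKM), *Trp63* (1.18 RPKM), *Trp73* (0.935 RPKM), *Casp8* (0.922 RPKM), *Bak1* (0.590 RPKM), *Cdkn1a* and *Bcl2*. Among the 33 pairs of neighbours in this order, the control libraries overlapped in 27, and only *Mdm2*, *Trp53bp1*, *Bcl2l1*, *Brca1*, *Trp53inp1* and *Perp* lay wholly above the gene that followed. Survival genes of the BCL2 family were unequal, with *Bcl2* at 0.134 RPKM from only 10, 0 and 10 reads in the controls. The per-length scale uses all annotated exons of a gene, so a gene with long rarely used exons is placed too low.

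None of the members tested passed the threshold between *Tex15*-/- and control gonocytes. Of the 34, 32 passed the filter on low counts and were tested in a fit over all 16311 genes. At an edgeR adjusted p under 0.01 the count was 0 of 32, beside 0% of all genes, and at 0.05 it was again 0, beside 0.0184% (3 genes). *Tex15*, the targeted gene, also missed 0.01 in this fit (edgeR adjusted p = 0.0112). A count of 0 at 0.01 therefore does not show that the members were unchanged. DESeq2 also called 0 members, beside 0.0893% of all genes at an adjusted p under 0.01. The smallest edgeR adjusted p of a member was 0.460, for *H2afx*.

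At an unadjusted edgeR p under 0.05, 6 of the 32 (18.8%) were reached, beside 9.2% of all genes. In the higher direction these were *H2afx* and *Bcl2* (6.25% of the members, beside 6.05% of all genes), and in the lower direction *Pmaip1*, *Casp9*, *Brca1* and *Brca2* (12.5%, beside 3.15%). *Bcl2* entered the test only through the *Tex15*-/- libraries, where it was high, so its place in these counts and in those of groups that do not overlap was set by the filter; the other 31 each had libraries of both groups at the level of the filter. DESeq2 gave 4 members, *Bcl2* included, at an unadjusted p under 0.05, which is 12.5% beside 8.22%. The fitted log2 fold changes were above 0 for 14 members and below 0 for 18, with a median of -0.05 beside -0.00031 over all genes. Of the 32, 31 had a log2 fold change between -1 and 1, *Bcl2* being the exception.

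**Figure D2:**
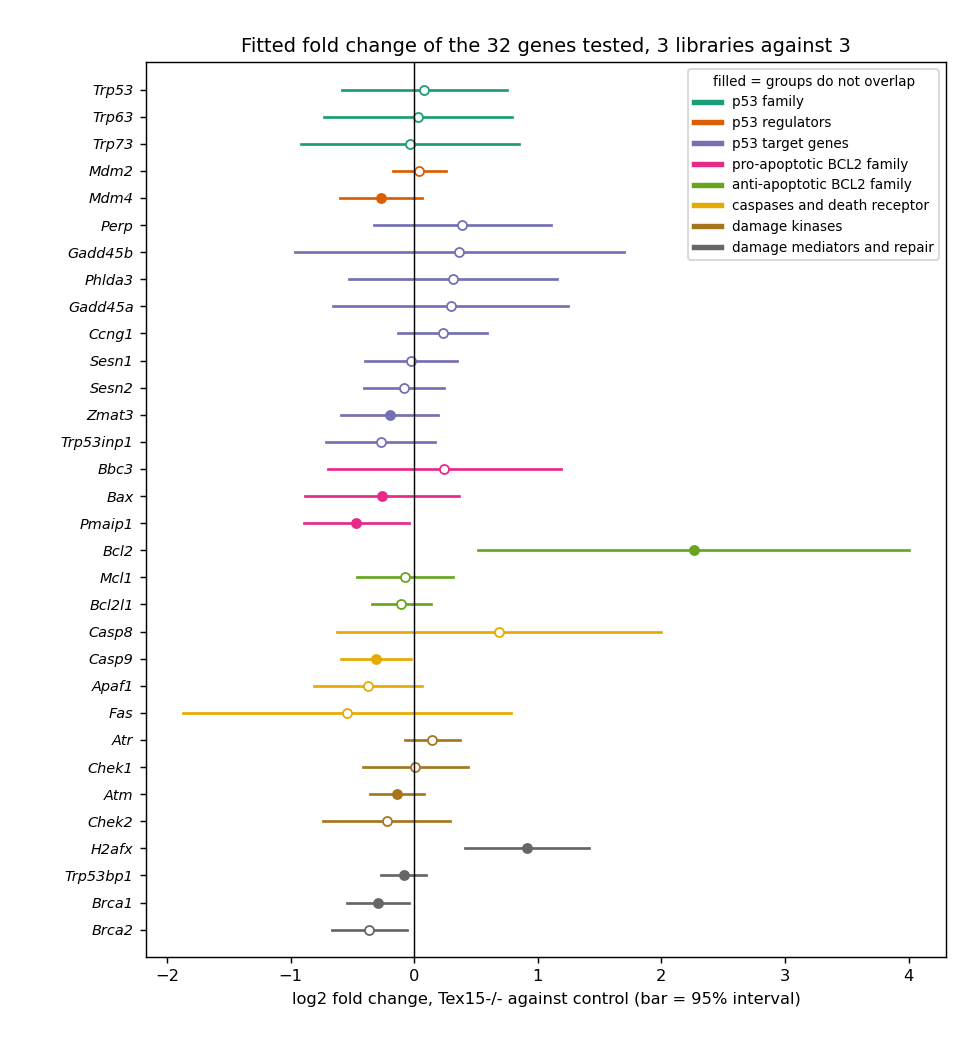
Fitted log2 fold change of the 32 tested genes between *Tex15*-/- and control gonocytes (points) with its 95% interval (bars), 3 libraries against 3, coloured and ordered by role. Filled points mark the 10 genes whose groups did not overlap. Only the intervals of *H2afx*, *Bcl2*, *Pmaip1*, *Casp9*, *Brca1* and *Brca2* leave out 0, without adjustment. *Bcl2* entered the fit only through the *Tex15*-/- libraries, where it was high, so its interval and filled point are not a test result.

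The libraries of the groups did not overlap for 10 of the 32, beside 13.2% of all genes. *H2afx* and *Bcl2* were higher in every *Tex15*-/- library (6.25% of members, beside 6.51% of all genes). *Mdm4*, *Zmat3*, *Bax*, *Pmaip1*, *Casp9*, *Atm*, *Trp53bp1* and *Brca1* were lower in every one (25% of members, beside 6.68%). These 8 had small fitted log2 fold changes, between -0.08 for *Trp53bp1* and -0.47 for *Pmaip1*. Without *Tex15*-/- replicate 1 the count was 16 of 33, with 6 higher (18.2%, beside 19.5% of all genes) and 10 lower (30.3%, beside 20.9%). With *Tex15*-/- replicates 2 and 3 both left out, a choice made after the data were seen, replicate 1 lay outside the controls for 17 of 34, with 3 higher (8.82%, beside 23.1%) and 14 lower (41.2%, beside 23.6%). No test was run on these shares.

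*Trp53* and its relatives overlapped between the groups. *Trp53*, which encodes p53, was at 7.37, 6.82 and 6.96 CPM in the controls and at 7.01, 9.45 and 5.90 CPM in the *Tex15*-/- libraries. *Trp63*, whose product guards oocytes, was at 12.2, 10.2 and 7.33 CPM in controls against 6.01, 10.2 and 14.1 CPM, and *Trp73* was at 3.50, 7.62 and 4.40 CPM against 6.21, 4.0 and 4.95 CPM. The fitted log2 fold changes of the 3 lay between -0.03 and 0.08, with 95% intervals from -0.73 to 0.79 for *Trp63* and from -0.92 to 0.85 for *Trp73*. For *Trp53* the 95% interval ran from -0.59 to 0.75, which corresponds to between 0.666 and 1.68 times the control level, at 31 to 52 reads per library. The processed pseudogene *Trp53-ps* held 0 reads in every library but *Tex15*-/- replicate 3, where it held 6. Reads that fit both copies could be missing from the counts of either.

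*Mdm2*, which is itself a p53 target, overlapped between the groups. It was at 261, 234 and 252 CPM in the controls and at 236, 273 and 260 CPM in the *Tex15*-/- libraries. Its log2 fold change was 0.04, with a 95% interval that corresponds to between 0.888 and 1.19 times the control level (edgeR adjusted p = 0.898, 1167 to 1502 reads per library). *Mdm4* was at 211, 213 and 231 CPM in the controls and at 209, 134 and 201 CPM in the *Tex15*-/- libraries. The *Tex15*-/- libraries of *Mdm4* lay below all controls, but replicate 1 by little. The fitted log2 fold change was -0.27 (edgeR adjusted p = 0.604), and without replicate 2 it was -0.087.

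Among the 10 p53 target genes, 9 were tested, 5 had fitted values above 0 and 4 below, and none reached an unadjusted p under 0.05. *Cdkn1a*, with an element match just before an annotated start, did not pass the filter. It was at 0.737, 2.01 and 0.367 CPM in the controls and at 1.20, 1.09 and 0.761 CPM in the *Tex15*-/- libraries, from 16 reads over each group, and a difference was not detectable at this depth. *Ccng1*, which encodes cyclin G1 and holds the other match within 1 mismatch, had between 43.3 and 50.9 CPM in the controls and between 43.7 and 64.7 CPM in the *Tex15*-/- libraries (log2 fold change 0.23, 95% interval -0.13 to 0.59). *Zmat3*, a p53-induced RNA-binding protein gene, was at 21.6, 24.1 and 21.4 CPM against 19.8, 19.3 and 19.4 CPM. The *Tex15*-/- libraries of *Zmat3* lay just below the controls, with a log2 fold change of -0.20 (edgeR adjusted p = 0.729).

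The other 7 target genes overlapped between the groups. *Sesn1* and *Sesn2*, which encode the stress-induced sestrins, had fitted log2 fold changes of -0.03 and -0.08, and *Trp53inp1*, a p53-induced nuclear protein gene, had -0.27. *Gadd45a* and *Gadd45b*, growth arrest genes, were at 0.29 and 0.36, *Phlda3*, an inhibitor of AKT signalling, at 0.31 and *Perp*, a membrane protein gene of the p53 response, at 0.39. These 4 were thinly covered, with levels between 1.27 and 9.63 CPM, and their 95% intervals were wide, from -0.33 to 1.1 for *Perp* and wider for the other 3.

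Of the 4 pro-apoptotic BCL2 genes among the members, through which p53 reaches mitochondria, *Bax* and *Pmaip1* lay below the controls in every *Tex15*-/- library. *Bax*, the pore-forming effector, was at 9.03, 7.82 and 7.33 CPM in the controls and at 6.81, 7.09 and 6.28 CPM in the *Tex15*-/- libraries. *Bbc3*, which encodes PUMA, was at 2.77, 3.21 and 2.38 CPM against 3.21, 3.63 and 3.05 CPM. *Pmaip1*, which encodes NOXA, was at 28.2, 25.3 and 22.4 CPM against 19.4, 15.8 and 19.6 CPM. For *Bax* and *Pmaip1* the groups were apart, for *Bax* by a narrow margin (7.33 against 7.09 CPM), and for *Bbc3* they overlapped. The log2 fold change of *Pmaip1* was -0.47 (SE 0.191, edgeR unadjusted p = 0.0331, adjusted p = 0.501), and those of *Bax* and *Bbc3* were -0.26 and 0.24. *Bak1*, the other effector, did not pass the filter, with 23 reads over the controls and 18 over the *Tex15*-/- libraries, and 25.5% of its exon length is shared with *Ggnbp1*.

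Of the survival genes, *Bcl2* differed from *Bcl2l1* and *Mcl1*. *Bcl2* was at 1.84, 0 and 1.83 CPM in the controls and at 2.61, 10.5 and 4.95 CPM in the *Tex15*-/- libraries. The groups did not overlap, and the highest value was that of replicate 2, which also had the highest sum of somatic markers; the part of that sum in the *Bcl2* value was not tested. *Bcl2* passed the filter on low counts, 1.85 CPM before scaling in at least 3 libraries, only through the *Tex15*-/- libraries, since no control reached that level, so its groups had to differ and its p is not given. The fitted log2 fold change was 2.26 (SE 0.791), from 0 to 10 reads in the controls and 13 to 58 in the *Tex15*-/- libraries. Without replicates 2 and 3 it was 1.06. Without any filter on low counts *Bcl2* passed the threshold, in a fit that called 1.15% of 42446 genes. With so few reads in the controls, that call is not used as support. *Bcl2l1* and *Mcl1* were covered by far more reads and had log2 fold changes of -0.10 and -0.07, with 95% intervals from -0.34 to 0.14 and from -0.46 to 0.32.

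*Casp9*, the initiator caspase that APAF1 activates, was at 87.2, 83 and 75 CPM in the controls and at 74.5, 59.0 and 64.1 CPM in the *Tex15*-/- libraries. The groups were apart, although *Tex15*-/- replicate 1 lay only just below the lowest control. Its log2 fold change was -0.31 (SE 0.128, edgeR unadjusted p = 0.0336, adjusted p = 0.501). *Apaf1*, the scaffold of the apoptosome, had a log2 fold change of -0.37, and *Fas*, a death receptor with a p53 element match in its gene, had -0.55 at 1.45 to 7.22 CPM. *Casp8*, the initiator caspase of death receptors, had 0.69, and its highest library was again *Tex15*-/- replicate 2, at 7.63 CPM against 1.40 and 3.81 CPM in replicates 1 and 3. Without replicates 2 and 3 the value for *Casp8* was -0.91.

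The damage kinases had fitted log2 fold changes between -0.22 and 0.15. *Atm*, activated by double-strand breaks, was at 148, 160 and 146 CPM in the controls and at 143, 128 and 141 CPM in the *Tex15*-/- libraries. These groups were apart by a narrow margin, with a log2 fold change of -0.14 (edgeR adjusted p = 0.663). *Atr*, which responds to stalled replication, had 0.15, *Chek1* had 0.01 and *Chek2* had -0.22. The 95% intervals of all 4 kinases lay between -0.74 and 0.43.

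*H2afx* had the smallest p of the 32 members. It encodes H2AX, the histone variant phosphorylated around breaks, and lies on chromosome 9 from 44334694 to 44336077 (plus strand, GRCm38). It was at 8.48, 10.2 and 10.8 CPM in the controls and at 16.8, 20.9 and 17.9 CPM in the *Tex15*-/- libraries. Every *Tex15*-/- library was above every control. The somatic marker sum was in the control range in replicate 1 and highest in replicate 2, and its part in the *H2afx* values was not tested. The log2 fold change was 0.91 (SE 0.228, 95% interval 0.41 to 1.42), with an edgeR unadjusted p of 0.00218 and an adjusted p of 0.460, so it did not pass the test over all genes. Over all the alternatives run, its log2 fold change lay between 0.78 and 0.99 and its adjusted p between 0.0334 and 1.00. The level of the transcript does not measure phosphorylation of the protein. An antisense gene, *Gm44335*, shares 141 bp with it and held 0 reads in all 6 libraries.

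**Figure D3:**
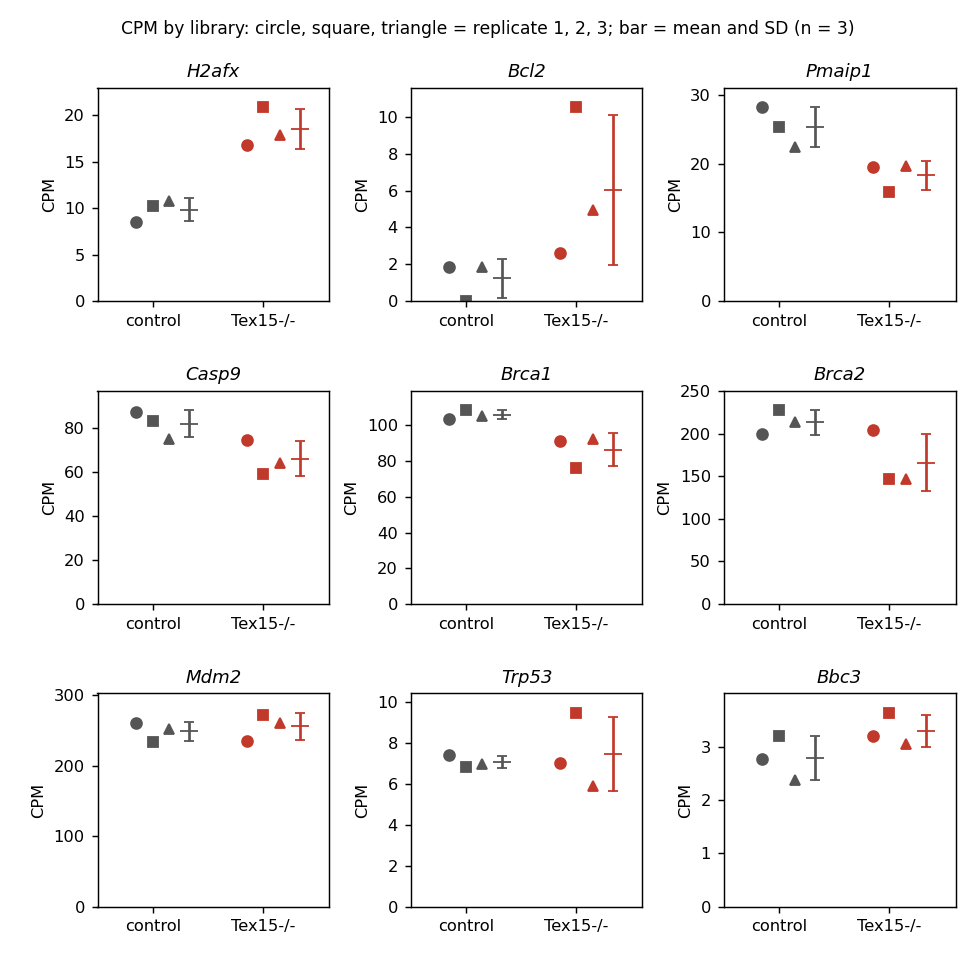
CPM of 9 genes in each library, with grey for control, red for *Tex15*-/-, a symbol for each replicate, and the mean and SD (n = 3) as bars; each vertical axis starts at 0. *H2afx* and *Bcl2* lie higher in every *Tex15*-/- library, *Pmaip1*, *Casp9* and *Brca1* lower in every one, and *Mdm2*, *Trp53*, *Bbc3* and *Brca2* overlap.

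The other 3 damage mediators had fitted values below 0. *Brca1*, a scaffold of homologous recombination, was at 104, 109 and 106 CPM in the controls and at 91.2, 76.1 and 92.3 CPM in the *Tex15*-/- libraries, and the groups were apart. *Brca2*, which acts in repair by homologous recombination, was at 199, 228 and 213 CPM against 205, 147 and 147 CPM, where replicate 1 lay among the controls. The log2 fold change of *Brca1* was -0.29 (SE 0.113, edgeR unadjusted p = 0.0259, adjusted p = 0.479) and that of *Brca2* was -0.36 (SE 0.137, edgeR unadjusted p = 0.0229, adjusted p = 0.477). Without *Tex15*-/- replicate 1, *Brca2* passed the threshold with a log2 fold change of -0.53 (edgeR adjusted p = 0.00795), in a fit that called 2.21% of all genes. With only replicate 1 kept it was -0.06. *Trp53bp1* was at 396, 384 and 389 CPM against 374, 357 and 372 CPM, which were apart, with a log2 fold change of -0.08, and 15.0% of its exon length is shared with *Tubgcp4*.

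The order of the *Tex15*-/- libraries by repeat reads depended on the scaling, so the members were set beside repeat reads on both scales. Reads on consensus sequences of transposable elements were scaled to the gene counts of the same library (RPM of gene counts) or to all repeat reads of that library (RPM of repeat counts). IAPEZI, the internal part of an endogenous retrovirus, had 4316, 4662 and 5112 RPM of gene counts in the controls and 15172, 5148 and 13858 in *Tex15*-/- replicates 1, 2 and 3. On the scale of repeat counts it had 25272, 23408 and 26920 RPM against 59538, 44277 and 70802. IAPEZI was thus above the controls in every *Tex15*-/- library on both scales, by little in replicate 2 on the scale of gene counts and by far on that of repeat counts.

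L1MdGf_I, a young LINE1 family, had 5487, 6660 and 6298.8 RPM of gene counts in the controls against 11944, 7699 and 10406. It had 32134, 33437 and 33173 RPM of repeat counts against 46873, 66216 and 53163. Replicate 1 was the highest library on the first scale, and replicate 2 on the other. Replicate 2 also held the most somatic marker reads and the fewest repeat reads in all, 116270 RPM of gene counts against 170764 to 199173 in the controls, and the part of either in these values was not tested.

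For the 32 tested members, the median difference from the control mean on the log2(CPM + 1) scale was 0.0046, 0.04 and -0.05 in the controls and -0.08, -0.14 and -0.03 in *Tex15*-/- replicates 1, 2 and 3. The median over all genes was within 0.01 of 0 in each library. The 9 tested p53 target genes had medians of -0.13, 0.26 and 0.04 in *Tex15*-/- replicates 1, 2 and 3. Replicate 1 was the lowest of the 6 libraries for these 9 genes and replicate 2 the highest. The 24 tested p53 target genes outside the members did not share this order. Their medians were 0.15, -0.18 and -0.0035 in the controls and -0.05, 0.0002 and 0.10 in *Tex15*-/- replicates 1, 2 and 3. Replicate 1 had the most reads on both elements by gene counts, whereas by repeat counts replicate 2 had the most L1MdGf_I reads and replicate 3 the most IAPEZI reads. The 3 tested pro-apoptotic members, *Bax*, *Bbc3* and *Pmaip1*, had medians of -0.21, -0.16 and -0.31, against 0.15, 0.01 and -0.16 in the controls. Other pro-apoptotic BCL2 genes, outside the members, mostly had fitted log2 fold changes above 0. These were *Bad*, *Bok*, *Hrk*, *Bcl2l11* and *Bid*, whereas *Bmf* was below 0. No correlation over the 6 libraries was computed.

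**Figure D4:**
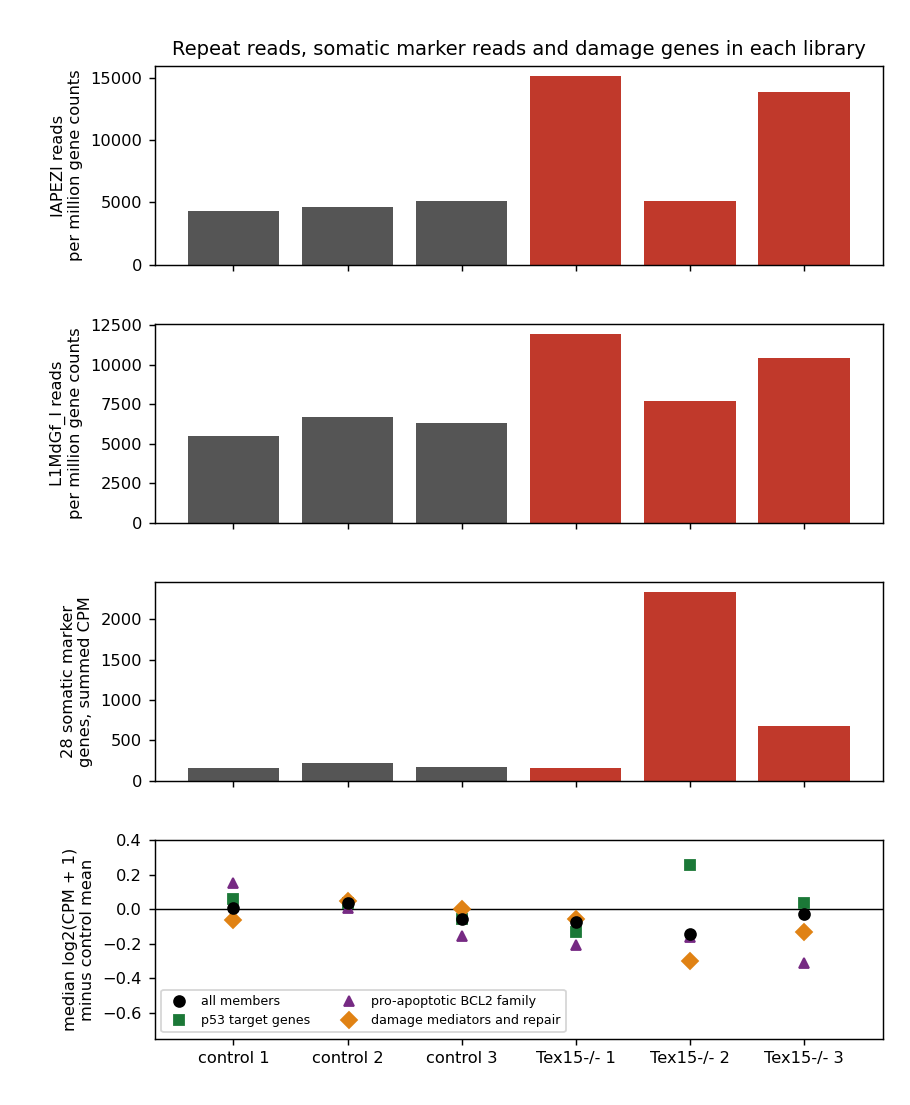
For each of the 6 libraries, RPM of gene counts on IAPEZI and on L1MdGf_I, the summed CPM of 28 somatic marker genes (bars from 0), and the median difference from the control mean on the log2(CPM + 1) scale for members and for 3 role groups (points). On this scale IAPEZI is highest in *Tex15*-/- replicates 1 and 3, and somatic markers are highest in replicate 2. The 9 tested p53 target genes among the members are lowest in replicate 1 and highest in replicate 2.

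L1MdTf_I, another young LINE1 family, had 8932, 10107 and 9348 RPM of gene counts in the controls and 16504, 9135 and 13232 in the *Tex15*-/- libraries, and 52309, 50745 and 49233 RPM of repeat counts against 64765, 78571 and 67605. MMERVK10C, a retroviral element, had 2705, 3291 and 3481 RPM of gene counts against 5170, 1860 and 5452, and 15842 to 18335 RPM of repeat counts in the controls against 20287, 16001 and 27855. Replicate 2 was inside the control range for L1MdTf_I by gene counts and the highest library by repeat counts. For MMERVK10C it was below the controls by gene counts and inside their range by repeat counts.

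In the rest of the pathway no gene was called either, but the edgeR fit called 0% of all genes, so this does not compare the lists. Of 95 further genes in 3 lists, 89 were tested and 0 passed the threshold by edgeR or DESeq2, with 7 at an unadjusted edgeR p under 0.05 (7.87%, beside 9.2% of all genes). Of the 89, 7.87% were higher in every *Tex15*-/- library (6.25% of members, 6.51% of all genes). Lower in every one were 6.74%, beside 25% of members and 6.68% of all genes. The 24 tested further p53 target genes, such as *Btg2* and *Rrm2b*, had 12 fitted values on either side of 0, a median log2 fold change of 0.0034 and none at an unadjusted p under 0.05. The 41 checkpoint and repair genes had a median of -0.03, with 19 above 0 and 22 below. The 24 tested apoptosis genes had a median of 0.23, with 16 above 0 and 8 below, and in *Tex15*-/- replicates 1, 2 and 3 their median difference from the control mean was 0.01, 0.42 and 0.12 on the log2(CPM + 1) scale, the highest in the library with the most somatic marker reads.

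Of the 7, 5 had values above the controls and 2 below. *Cflar*, an inhibitor of caspase 8 activation, was at 6.64, 13.2 and 8.43 CPM in the controls and at 22.2, 26.3 and 16.4 CPM in the *Tex15*-/- libraries, which were apart (log2 fold change 1.20, edgeR unadjusted p = 0.0020, adjusted p = 0.460). *Tnfrsf1a*, a receptor for tumour necrosis factor, was at 0.922, 2.21 and 0.733 CPM against 0.601, 13.8 and 4.0 CPM, so that replicate 1 was below every control and the log2 fold change of 2.26 rested on replicates 2 and 3. Without any filter on low counts, *Cflar* and *Tnfrsf1a* passed the threshold, in the fit that called 1.15% of 42446 genes. *Nbn* and *Mre11a*, partners in the complex that senses broken ends, had 0.54 and -0.37, and *Fancd2*, of the Fanconi anaemia pathway, had -0.44. *Pcna*, the replication clamp, had 0.66 (edgeR adjusted p = 0.471). It was at 19.4, 16.8 and 18.1 CPM in the controls against 21.8, 38.7 and 25.1 CPM, highest in replicate 2. *Nbn* and *Fancd2* passed the threshold without *Tex15*-/- replicate 1, in the fit that called 2.21% of all genes, and with only replicate 1 kept their log2 fold changes were 0.077 and -0.14.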

How the data were processed

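RNA-seq libraries of sorted E16.5 gonocytes were analysed, 3 control and 3 *Tex15*-/-. The authors prepared stranded libraries from low-input RNA after depletion of ribosomal RNA, aligned the paired reads to GRCm38 with HISAT2 and counted them over Ensembl genes with HTSeq 0.11.1. The deposited values are raw counts. The strand setting of the counting is not given in the sources used here, so antisense and overlapping genes are uncertain. Repeat counts are reads mapped by the authors with bowtie2 to rodent repeat consensus sequences, also not normalised. The rows for reads assigned to no gene (61.3% to 67.3% of each gene table) and for unmapped reads in the repeat tables were left out. Depth was 4893265 to 5697020 gene reads per library, and intervals cover the spread between libraries.

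Counts were tested in R 4.3.3 with edgeR 4.0.16 (filterByExpr at its defaults, a count of 10 and a total of 15, TMM, quasi-likelihood test, no covariates) over 16311 genes, with Benjamini-Hochberg adjustment over all of them and a call at an adjusted p under 0.01. DESeq2 1.42.0 was an alternative. Exon lengths and positions come from GENCODE M21 (54809 of 54838 identifiers matched) and promoter sequences from RefSeq. Medians per library use log2(CPM + 1). The test was tried on simulated counts first. Alternatives were other filters, scaling, thresholds and estimates, a block for the replicate number, and the omission of each library.

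Every member is named by role. Values per library are given for members at an unadjusted p under 0.05 or with groups that do not overlap, and for *Trp53*, *Trp63*, *Trp73*, *Mdm2*, *Cdkn1a*, *Bax*, *Bbc3* and *Pmaip1*. From the other lists, genes at an unadjusted p under 0.05 are named, and further pro-apoptotic BCL2 genes by direction only. The values of 1 of these are not reported here. The members and lists were chosen with earlier results of these data known.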

Additional observations from a re-analysis of the deposited data

How the results depend on the processing

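Of 580 values for single genes over all alternatives, 536 kept their direction and side of the threshold, 6 newly passed it and 38 changed sign, in 15 genes. With all 6 libraries and the filter, no member passed an adjusted p of 0.05; none passed the threshold with DESeq2, other scaling or at least 10 counts in every library. Without *Tex15*-/- replicate 1, 3 members passed an adjusted p of 0.05 (7.33% of all genes did). Without a filter 1 member (*Bcl2*) and 2 further genes (*Cflar*, *Tnfrsf1a*) passed the threshold, beside 1.15% of all genes in that fit. The *Bcl2* call is not used as support. Without *Tex15*-/- replicate 1 another 1 member (*Brca2*) and 2 further genes (*Nbn*, *Fancd2*) passed it, beside 2.21% of all genes. With a library left out, the counts of members and of further genes ran from 0 to 1 and from 0 to 2. The median log2 fold change of the members ran from -0.14 (without control replicate 3) to -0.013 with a library left out. The count of members with groups apart ran from 11 to 16, or 17 without *Tex15*-/- replicates 2 and 3. The shares of all genes rose too. With a library left out they ran from 9.43% to 19.5% higher and from 10.2% to 20.9% lower. Without *Tex15*-/- replicates 2 and 3 they were 23.1% and 23.6%. *Tex15* passed an adjusted p of 0.05 at -2.35, and the threshold at -2.33 without a filter, -2.37 with at least 10 counts, -2.35 with DESeq2 and with the newer edgeR estimate, -1.78 without replicates 2 and 3 (where the spread comes from the controls alone and the lone library is assumed to vary like them), and between -2.74 and -2.17 with *Tex15*-/- replicate 1 or 2 left out. The causes were not tested.

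Signs changed with a library left out for 11 members, whose log2 fold changes then ran from -0.12 to 0.23 for *Trp53*, -0.28 to 0.30 for *Trp63*, -0.24 to 0.35 for *Trp73*, -0.0021 to 0.11 for *Mdm2*, -0.19 to 0.076 for *Sesn1*, -0.16 to 0.047 for *Sesn2*, -0.48 to 0.76 for *Gadd45b*, -0.26 to 0.069 for *Mcl1*, -0.019 to 1.12 for *Casp8*, -0.95 to 0.25 for *Fas* and -0.089 to 0.10 for *Chek1*. Without *Tex15*-/- replicates 2 and 3, values of changed sign were -0.0069 for *Trp53*, -0.72 for *Trp63*, 0.27 for *Trp73*, -0.078 for *Mdm2*, -0.14 for *Ccng1*, -0.33 for *Gadd45a*, -0.094 for *Gadd45b*, -0.91 for *Casp8*, 0.064 for *Fas*, -0.019 for *Atr*, -0.047 for *Chek1* and -1.06 for *Tnfrsf1a*. Without scaling factors *Trp63* was at -0.0069 and *Chek1* at -0.020, with at least 10 counts *Chek1* was at -0.0086, and without a filter *Sesn1* was at 0.0079.

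No pairing by replicate number was seen. The deviations of same-numbered libraries correlated at -0.14, -0.04 and -0.0092, and no library correlated best with its own number. The labels do not say what the number stands for, so these correlations cannot exclude a pairing. With the number as a block, 0 members and 0 further genes passed the threshold, *Tex15* was at -2.43 (edgeR adjusted p = 0.0155), *Trp63* at -0.013 and *Trp73* at 0.012, and no call changed. Depth limits the genes with few reads per library, 2 to 10 for *Cdkn1a* and 31 to 52 for *Trp53*.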
